A study of Mus musculus with 16 samples.

Results

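The comparison described here sets the 8 libraries of bisphenol A (BPA) exposed mice against the 8 control libraries, with sex as a covariate. It uses 16 of the 16 RNA libraries. Attention was given to autosomal genes that moved the same way in males and in females. Of 15740 autosomal genes tested, 8580 (54.5%) had the same direction in both sexes, 4496 higher and 4084 lower with BPA. That share depended on the libraries: it was 47.5% without male BPA 2 and 58.8% without female BPA 2. Without both male BPA 2 and female BPA 1 it was 47.9%. The share was not tested against chance. All mice were of OF-1, an outbred strain, and gave brain oligodendrocytes at postnatal day 16 by magnetic sorting for the O4 antigen. Males and females each gave 4 control and 4 BPA libraries. BPA reached the pups through the water of their mothers, from gestational day 7 through lactation. The labels give 40 µg/kg/day and the design text 250 µg/mL in the water, values that would need an implausibly small water intake, so the true dose is uncertain. The labels give neither litter nor batch. Exposure was set by the mother, so littermates share it, and p-values may be too small.

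BPA is a plastic monomer that can bind estrogen receptors and other nuclear receptors. Oligodendrocytes wrap axons in myelin, which they build from large amounts of newly made membrane protein and lipid. Their secretory load passes through the endoplasmic reticulum (ER), whose chaperones are induced by the unfolded protein response. Cytosolic proteins are refolded by heat shock proteins, which heat shock factors induce. The promoters of such genes often carry short DNA elements. Stretches that hold such an element are shown next for some of the members described here, not for all.

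Upstream stretches of 4 chaperone or stress genes, and the stretch that parts a pair of neighbouring genes, are given from RefSeq (GRCm38.p6), 5′ to 3′ on the gene's strand. In Dnajb4 (chr3:152193846-152193925, minus strand) and Hsph1 (chr5:149636337-149636416, minus strand), capitals mark the heat shock element pair TTCNNGAA. Dnajb4 also has another RefSeq window, and the stretch shown is from a window that holds the pair. In Hspa5 (chr2:34771990-34772089, plus strand) they mark the ER stress element ERSE. In Herpud1 (chr8:94386299-94386428, plus strand) they mark the C/EBP-ATF element, read on the other strand, and then the element ERSE-II. The last stretch (chr1:151428436-151428541, plus strand) lies between the start sites of Swt1 on the minus strand and Trmt1l on the plus strand.
Dnajb4: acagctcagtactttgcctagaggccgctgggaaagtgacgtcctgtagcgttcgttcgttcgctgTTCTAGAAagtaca
Hsph1: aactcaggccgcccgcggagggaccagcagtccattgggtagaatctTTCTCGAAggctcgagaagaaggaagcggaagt
Hspa5: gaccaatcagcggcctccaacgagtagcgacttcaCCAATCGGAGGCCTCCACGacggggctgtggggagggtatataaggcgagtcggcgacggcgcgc
Herpud1: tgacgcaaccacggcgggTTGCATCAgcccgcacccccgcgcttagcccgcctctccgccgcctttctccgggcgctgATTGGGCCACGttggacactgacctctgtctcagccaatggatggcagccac
Swt1 to Trmt1l: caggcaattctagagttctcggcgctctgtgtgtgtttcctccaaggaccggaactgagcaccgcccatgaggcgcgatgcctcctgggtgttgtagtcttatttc

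The motifs were searched on both strands in the 250 bases before the start sites of 27025 genes with a RefSeq window, and a match is a description of letters, not a bound site. A heat shock pair (TTCNNGAA or GAANNTTC) was found for 8 of the 14 cytosolic heat shock genes with a window (57.1%) and for 14.5% of all genes. The 2 spellings can overlap. ERSE (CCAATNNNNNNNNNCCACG) was found for 9 of 22 ER chaperone genes (40.9%) and for 0.13% of all genes. The C/EBP-ATF element (TGATGNAA) was found for 7 of 24 genes of the integrated stress response (29.2%) and for 3.91% of all genes. Among the 238 same-direction genes with a window that are defined below, 12 (5.04%) held the C/EBP-ATF element. TTCNNGAA was found for 5.04% of them and 8.11% of all genes, and GAANNTTC for 4.62% and 7.73%. An estrogen response element (GGTCANNNTGACC) was in the windows of 0 of those 238 and of 0.0666% of all genes.

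Levels are given in CPM, that is, counts divided by the library's scaled total. Total counts ran from 23603816 to 42575326 per library. Of the oligodendrocyte markers, Mbp, which encodes myelin basic protein, stood between 12980 and 19880 CPM in every library. Xist and the Y-linked gene Ddx3y matched the labelled sex in 16 of 16 libraries, though female BPA 1 held 1.33 CPM of Ddx3y. Male BPA 2 and female BPA 1 stood apart: male BPA 2 held 10940 CPM of 16 summed astrocyte markers, where the other libraries held 1916 to 4529 CPM, and female BPA 1 held 2840 CPM of 17 summed microglial markers, where the others held 682.2 to 2299 CPM. In sorted bulk samples, fewer cells of a type and less RNA per cell cannot be told apart.

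Of 16339 genes tested, 3 were called by limma-voom at an adjusted p under 0.05 (0.0184% of genes), and 2 of them are autosomal. Utp14b and 1700063D05Rik fell and Xlr3b rose, in both sexes. The next gene by p was Swt1, at an adjusted p of 0.0713. At an unadjusted p under 0.05 stood 530 genes that were higher with BPA (3.24%) and 705 that were lower (4.31%). No gene was called for a difference of the BPA effect between the sexes (0 of 16339 by limma-voom), where 772 genes (4.72%) had an unadjusted p under 0.05.

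Utp14b, an intronless copy of a nucleolar protein gene that takes part in making the small ribosomal subunit, had 64.0, 73.2 and 83.5 CPM as the lowest, median and highest of the 8 controls. In the 8 BPA libraries it had 43.1, 52.1 and 60.4 CPM. Each BPA library lay below each control. The mean fell from 73.7 ± 6.11 to 51.4 ± 6.20 CPM (SD, n = 8), or by -0.53 ± 0.07 on the log2 scale (SE; adjusted p 0.015 in limma-voom). The change was -0.53 in males and -0.53 in females. Utp14b lies within Acsl3, a fatty acyl-CoA ligase gene, and 2.23% of the 50-base words in its transcripts also occur in other genes, most in Acsl3. Acsl3 itself had 789.6 to 940.4 CPM in controls and 724.2 to 935.3 CPM with BPA, and differed by -0.11 ± 0.06 on the log2 scale (limma-voom adjusted p 0.72). The parent gene Utp14a had a log2 fold change of -0.02 ± 0.04. Leaving out any of 6 libraries ended the call of Utp14b, namely control males 1 and 3, control female 4, and BPA males 1, 3 and 4 (limma-voom adjusted p 0.0045 to 0.0663 over all alternatives). So did leaving out both male BPA 2 and female BPA 1, with a value of -0.49 on the log2 scale.

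The noncoding RNA 1700063D05Rik had 0.527, 0.677 and 1.12 CPM (lowest, median and highest) in controls and 0.127, 0.236 and 0.399 CPM with BPA. The groups did not overlap. Its log2 fold change was -1.53 ± 0.21 (limma-voom adjusted p 0.015), -1.79 in males and -1.26 in females. The call ended on leaving out any of the 6 libraries named for Utp14b or female BPA 4, and without both male BPA 2 and female BPA 1 (limma-voom adjusted p 0.0045 to 0.0663 over all alternatives). A gene with 0 counts could reach 3 counts by counting error, or 0.0705 to 0.127 CPM by library, so the lowest BPA value equals that limit in its own library. Xlr3b, an X-linked lymphocyte-regulated gene, had 0.165 to 0.561 CPM in controls and 0.578 to 1.57 CPM with BPA. Its log2 fold change was 1.77 ± 0.26 (limma-voom adjusted p 0.022). The call ended on leaving out any of those 7 libraries or female control 2 (limma-voom adjusted p 0.0129 to 0.0987 over all alternatives). Other genes, most of all its close copy Xlr3a, hold 56.5% of its transcript words, so its counts are uncertain. Xlr3a had 0.158 to 0.826 CPM in controls and 0.578 to 1.41 CPM with BPA, a difference of 1.52 ± 0.30 on the log2 scale (limma-voom adjusted p 0.17). Levels of the 3 called genes stand first in the plot of 8 genes by library.

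**Figure D1:**
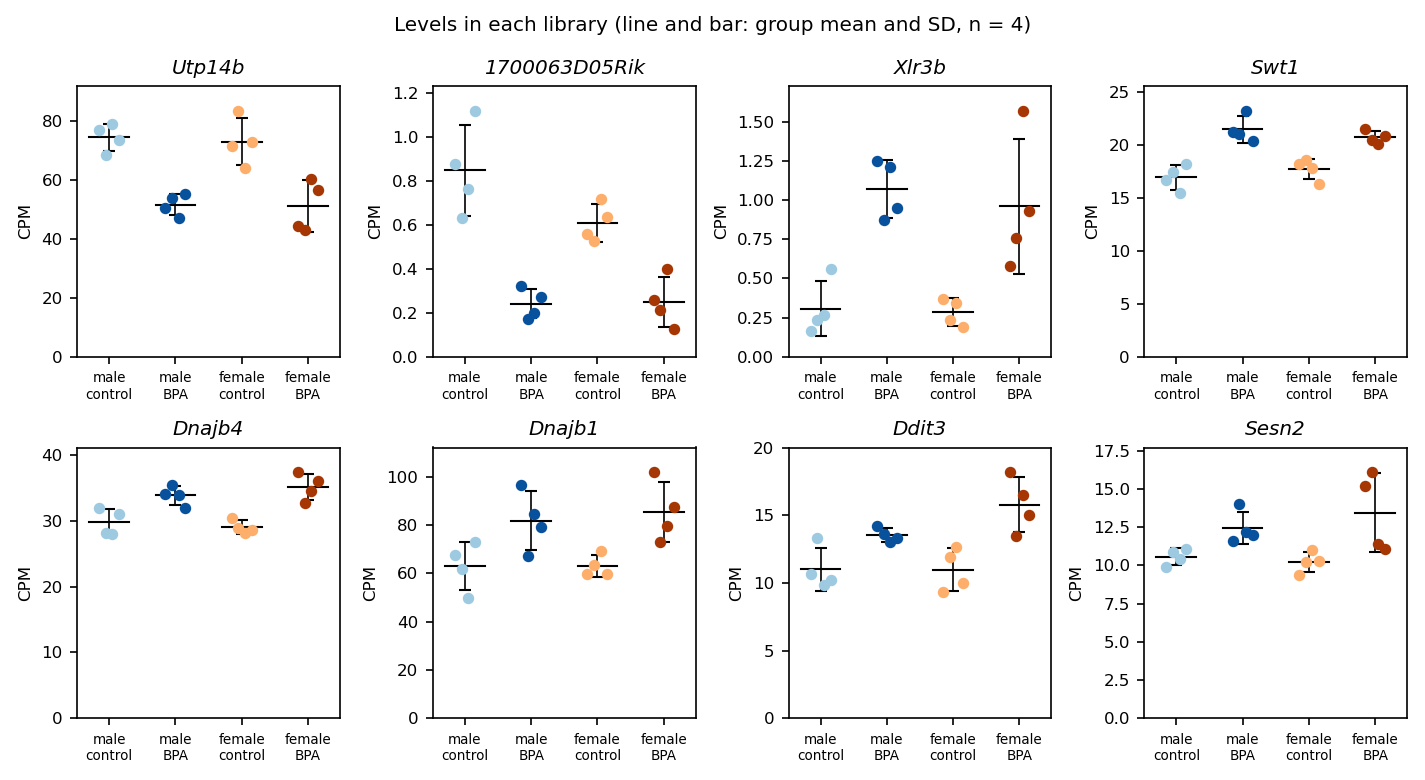
Levels of 8 genes (y axis, CPM, from 0) in the 16 libraries, by group (x axis), with 1 point per library and the group mean and SD (n = 4). The BPA libraries of Utp14b lie between 43.1 and 60.4 CPM, below the control range of 64.0 to 83.5 CPM, and those of Swt1 lie between 20.1 and 23.2 CPM, above 15.4 to 18.5 CPM.

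At an unadjusted p under 0.01, 331 autosomal genes had the same direction in both sexes. These were all 331 autosomal genes under that p, with 0 of opposite direction, so choosing by p in the joint fit fixed the agreement between the sexes. There were 134 higher (0.851% of autosomal genes) and 197 lower (1.25%), and they are termed the same-direction genes here. Their median absolute log2 fold change was 0.283. Of the 331, 286 code for proteins. In 13 autosomal genes (0.0826%) the 8 BPA libraries lay wholly outside the range of the 8 controls. The 4 higher ones were Swt1, Dnajb4, Rfwd3 and Sesn2. The 9 lower ones were 1700063D05Rik, Utp14b, Paip2b, Clptm1l, Tomm6os, Lrrc40, Gm12182, Bmf and Trmt61a. The step was small in some of them. Clptm1l, a membrane protein gene, had 104 to 110 CPM in controls and 94.7 to 104 CPM with BPA (log2 fold change -0.11 ± 0.03). Bmf, which encodes a cell death activator of the BH3-only kind, had 63.0 to 72.8 CPM in controls and 39.5 to 62.7 CPM with BPA (-0.33 ± 0.09, limma-voom adjusted p 0.30). Tomm6os is an antisense gene, and whether the counting used strand is not given in the sources used here, which also holds for Airn, described below. Gm12182 is a Gapdh pseudogene that shares 41.9% of its transcript words and is uncertain.

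Among the genes higher with BPA, Swt1, which encodes an RNA endonuclease, had 15.4, 17.6 and 18.5 CPM (lowest, median, highest) in controls and 20.1, 20.9 and 23.2 CPM with BPA. The ranges did not overlap, and the log2 fold change was 0.28 ± 0.05. Trmt1l, a tRNA methyltransferase relative parted from the start site of Swt1 by the 106 bases printed above, had 24.7 to 30.4 CPM in controls and 29.9 to 35 CPM with BPA (0.21, limma-voom adjusted p 0.253, not called). Dnah14, an axonemal dynein heavy chain, had 0.531 to 2.59 CPM in controls and 1.37 to 4.82 CPM with BPA. Its log2 fold change was 1.71 ± 0.33 (limma-voom adjusted p 0.162). Abhd15, an alpha/beta hydrolase-domain protein, had 1.29 to 4.97 CPM in controls and 3.31 to 7.27 CPM with BPA (1.29 ± 0.24, adjusted p 0.162 by limma-voom). Ccdc117, Mtfr1, a regulator of mitochondrial fission, and Pnkd had log2 fold changes of 0.27, 0.20 and 0.28.

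Among those lower, Tdp2, which removes trapped topoisomerase from DNA ends, had 15.3 to 17 CPM in controls and 11.3 to 15.5 CPM with BPA (log2 fold change -0.30 ± 0.06, limma-voom adjusted p 0.17). Mpst, a sulfurtransferase that makes hydrogen sulfide, had 50.9 to 76.5 CPM in controls and 45.4 to 64.4 CPM with BPA (-0.34 ± 0.07). Cntn1, an adhesion molecule of the axon and glial surface, had 582 to 745 CPM in controls and 486 to 617 CPM with BPA, with a log2 fold change of -0.27 ± 0.06. Vti1a, a SNARE protein of vesicle fusion, had -0.38 ± 0.08, and Inpp4a, a phosphoinositide phosphatase, had -0.38 ± 0.09. Zdhhc14, a palmitoyltransferase, had -0.20 ± 0.05, Rell1 -0.30 ± 0.07 and Tmem178 -0.41 ± 0.09. Corin, a protease that activates natriuretic peptide, had 1.73 to 2.96 CPM in controls and 0.597 to 2.10 CPM with BPA (-0.96 ± 0.21), and Olfr279, an olfactory receptor gene, had -0.60 ± 0.12. None of these was called by limma-voom, whose adjusted p for them ran from 0.17 to 0.219.

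The list termed cytosolic heat shock holds 19 genes. Most encode chaperones of the HSP70, HSP40, HSP90 and small families, their co-chaperones and heat shock factors. It also holds Hspd1 and Hspe1, which encode mitochondrial chaperonins, so the list is not purely cytosolic. Of these, 19 of 19 had a log2 fold change above 0, 17 in both sexes, with a median of 0.133 (0.168 in males, 0.102 in females). Over all autosomal genes 51.1% were above 0 and the median was 0.0026. None was called, and 6 of 19 (31.6%) were higher at an unadjusted p under 0.05, against 3.24% of all genes. This list and the others were chosen with earlier results of these data known. Members of a list also share their libraries, so such counts are a description, not an independent test. The mean log2 CPM of the list ran from 5.05 to 5.48 in controls and from 5.15 to 5.73 with BPA, and 5 of 8 BPA libraries lay above every control.

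Dnajb4, an HSP40 co-chaperone, had 28, 28.7 and 31.9 CPM (lowest, median, highest) in controls and 32, 34.3 and 37.4 CPM with BPA. The ranges did not overlap, and the log2 fold change was 0.23 ± 0.04 (limma-voom adjusted p 0.162). Dnajb1, another HSP40, had 49.7, 62.7 and 73.2 CPM in controls and 67.1, 82.1 and 102 CPM with BPA. In 6 of 8 BPA libraries it lay above every control (0.41 ± 0.09, limma-voom adjusted p 0.217). Hsph1, a nucleotide exchange factor of HSP70, had 105 to 169 CPM in controls and 138 to 199 CPM with BPA (0.29 ± 0.10). Bag3, which links HSP70 to autophagy, had 14.2 to 28.5 and 16.8 to 31.2 CPM (0.38 ± 0.15). The HSP90 partners Chordc1 and Ahsa1 had 0.13 ± 0.05 and 0.13 ± 0.06.

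The inducible HSP70 genes Hspa1a and Hspa1b varied more: Hspa1a had 17.1 to 45 CPM in controls and 7.64 to 84.7 CPM with BPA. Male BPA 2, the library with the astrocyte markers, was at 7.64 CPM and female BPA 1 at 84.7 CPM. The log2 fold change of Hspa1a was 0.46 ± 0.37. Without male BPA 2 the list had 19 of 19 members higher, 14 at an unadjusted p under 0.05 and a median of 0.173. Without both male BPA 2 and female BPA 1 it had 19 of 19, 13 at an unadjusted p under 0.05 and a median of 0.20. With microglial and astrocyte list means as covariates it had 19 of 19 and a median of 0.14. Of all genes tested, 1235 had an unadjusted p under 0.05 in either direction in the main fit. There were 1197 without male BPA 2 and 1193 without both libraries.

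**Figure D2:**
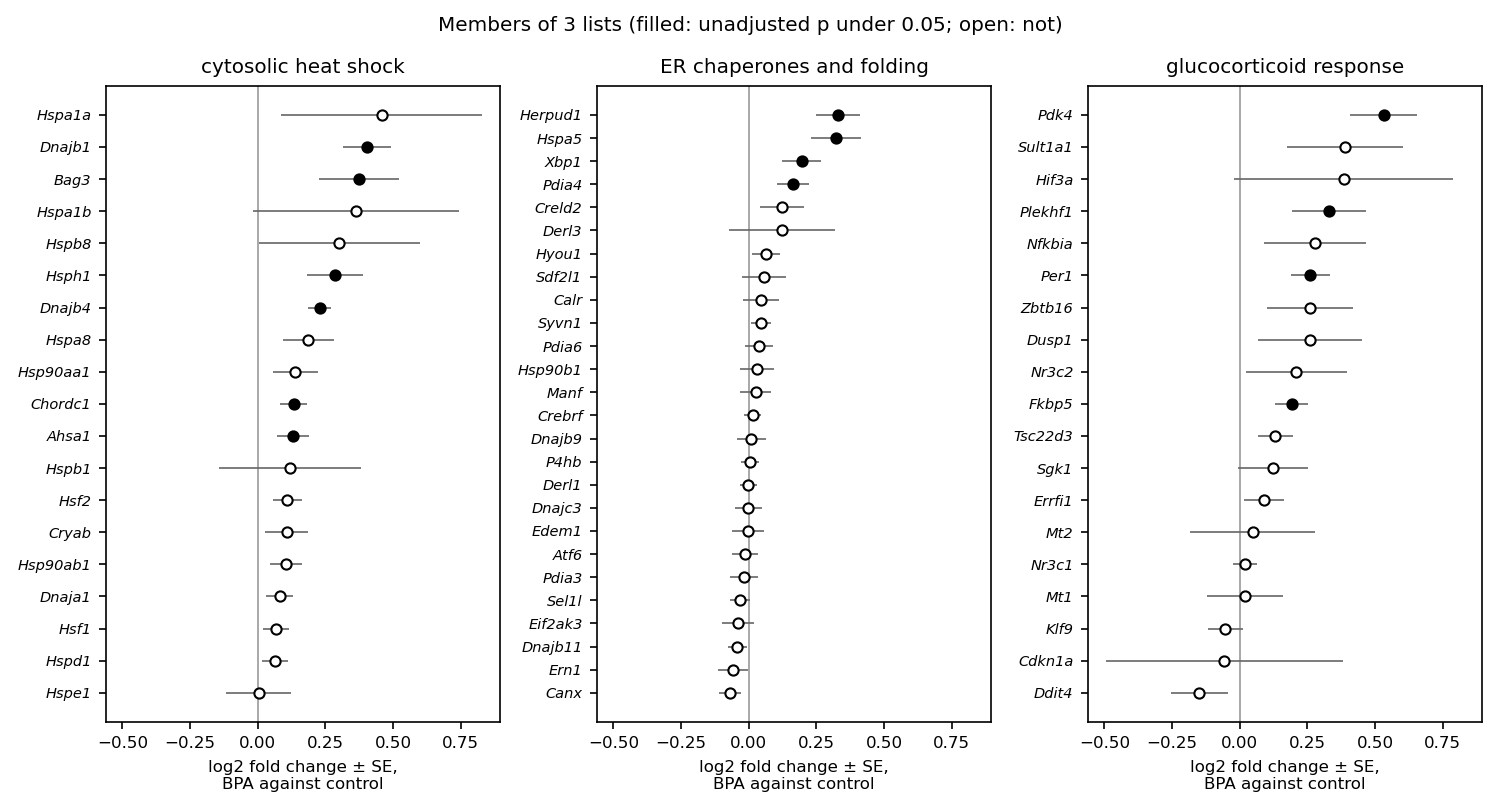
Log2 fold change of BPA against control with its SE (x axis) for each member tested (y axis) of 3 lists: cytosolic heat shock, ER chaperones and folding, and glucocorticoid response. Filled points have an unadjusted p under 0.05, and 19 of 19 heat shock genes lie above 0.

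In the list of ER chaperones and folding, 16 of 26 genes were higher (61.5%, against 51.1% of autosomal genes). At an unadjusted p under 0.05, 4 were higher (15.4%, against 3.24% of all genes) and 0 lower. The median, 0.02, was close to that of all genes. Herpud1, an ER-associated degradation protein whose upstream stretch is printed above, had 25.5, 28.4 and 32.2 CPM in controls and 29.5, 35.5 and 43.6 CPM with BPA. The log2 fold change was 0.33 ± 0.08 (limma-voom adjusted p 0.235), and the ranges overlapped. Hspa5, the chaperone BiP, had 366, 459 and 574 CPM in controls and 451, 596 and 663 CPM with BPA (0.32 ± 0.09). Xbp1, a transcription factor of the unfolded protein response, had 0.20 ± 0.07, and Pdia4, a disulfide isomerase, 0.16 ± 0.06. Other members lay near 0, among them Hsp90b1 at 0.03 ± 0.06, Dnajb9 at 0.01 ± 0.05 and Calr at 0.05 ± 0.07. No member of the list was called.

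Of the 27 integrated stress response genes, 17 were higher (63%, against 51.1% of autosomal genes), 13 in both sexes. At an unadjusted p under 0.05, 2 were higher (7.41%, against 3.24% of all genes). Ddit3, which encodes the transcription factor CHOP, had 9.33, 10.4 and 13.3 CPM in controls and 13.0, 13.9 and 18.2 CPM with BPA. Only the control at 13.3 CPM overlapped the BPA range, and the log2 fold change was 0.44 ± 0.08 (limma-voom adjusted p 0.162). Sesn2, a stress-induced regulator of nutrient signalling, had 9.38, 10.3 and 11.1 CPM in controls and 11.1, 12.1 and 16.1 CPM with BPA. The 2 ranges met without overlap, at 11.07 and 11.14 CPM, with a log2 fold change of 0.32 ± 0.08. Atf4, the transcription factor of this response, had 0.02 ± 0.05. Its targets Asns and Trib3 had -0.12 ± 0.11 and -0.08 ± 0.45.

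In the glucocorticoid response list, 16 of 19 genes were higher (84.2%, against 51.1% of autosomal genes), 12 in both sexes. The median log2 fold change was 0.191. Pdk4, a kinase that shuts down pyruvate dehydrogenase, had 10.8, 13.2 and 22.8 CPM in controls and 13.5, 19.1 and 29.8 CPM with BPA (0.53 ± 0.12, limma-voom adjusted p 0.235). Per1, a clock gene induced by glucocorticoids, had 97.8 to 120 CPM in controls and 105 to 159 CPM with BPA (0.26 ± 0.07). Fkbp5, a co-chaperone of the glucocorticoid receptor, had 22.8 to 31.4 and 27.6 to 32.3 CPM (0.19 ± 0.06). Plekhf1 had 0.33 ± 0.14, with 7.37 to 12.6 CPM in BPA males and 5.87 to 7.06 CPM in control males. In females its BPA levels, 5.47 to 6.53 CPM, lay within those of controls, 3.85 to 7.61 CPM. The receptor gene Nr3c1 had 0.02 ± 0.04. In this list 4 members (21.1%) had an unadjusted p under 0.05, all higher, against 3.24% of all genes, and none was called. Without both male BPA 2 and female BPA 1 the list had 14 of 19 higher and a median of 0.0944.

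Of 7 marker lists of other cell types, 4 were higher in most members with BPA. The mural and fibroblast list was higher in 10 of 12, but only 3 were higher in both sexes (median 0.66 in males, -0.0164 in females). The ependymal and choroid plexus list was also higher in 10 of 12, 6 in both sexes (median 0.523 in males, 0.19 in females). The neuronal list was higher in 5 of 14, the endothelial in 5 of 12 and the blood cell list in 4 of 8. All 17 microglial markers were above 0 (median 0.233, 0 with an unadjusted p under 0.05), with summed levels of 682.2 to 2299 CPM in controls and 823 to 2840 CPM with BPA. Of these, 14 were above 0 in both sexes, with medians of 0.385 in males and 0.0615 in females. Of 16 astrocyte markers 14 were above 0 (median 0.142), with 2313 to 4529 CPM and 1916 to 10940 CPM. In both sexes 12 were above 0 (median 0.171 in males, 0.0585 in females). Without male BPA 2, 2 of 16 astrocyte markers were above 0 and the median was -0.145. Without both libraries, 10 of 17 microglial markers were above 0 (median 0.061). The microglial median was 0.104 without female BPA 1, 0.14 without male control 1 and 0.145 without female control 3. With marker covariates it was 0.0295, but these covariates include the mean of the same microglial genes, which by itself draws the median towards 0. All 19 inflammatory mediators were above 0 (median 0.323), which was 0.183 without female BPA 1 and 0.193 without both. Ccl2, a monocyte chemokine, had 3.87 to 9.22 CPM in controls and 6.63 to 15.4 CPM with BPA (0.62 ± 0.20). The immediate early genes, which dissociation can induce, were above 0 in 23 of 26 members (median 0.258, 0.0727 in males and 0.393 in females). The median was 0.139 without female BPA 1, 0.148 without male BPA 2, 0.0569 without both and 0.0987 with marker covariates. The part of the other cell types in these results was not tested beyond the fits given.

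**Figure D3:**
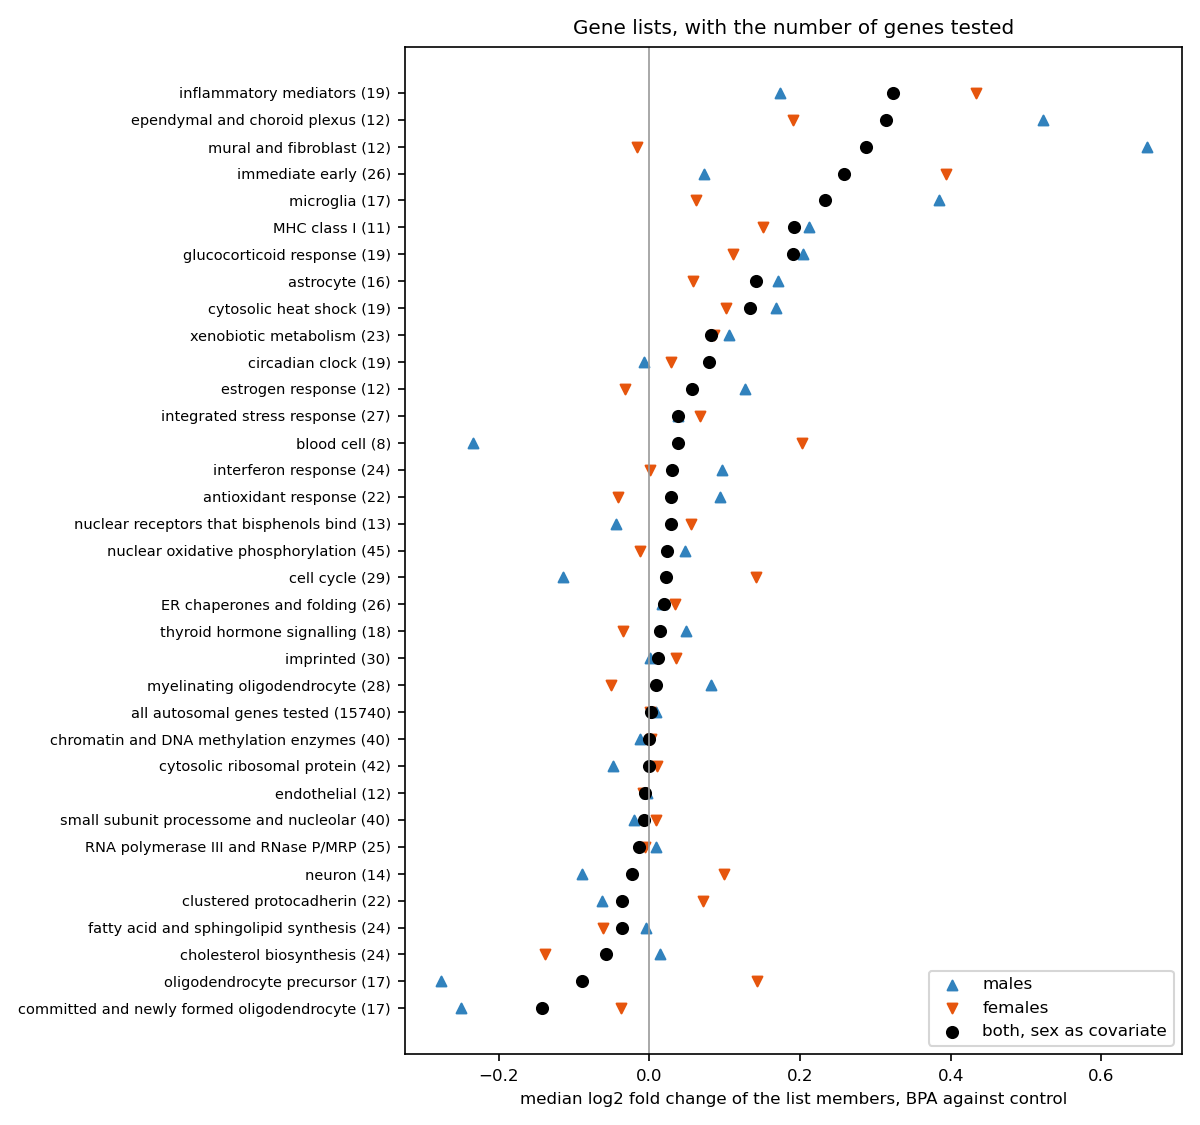
Median log2 fold change (x axis) of each gene list (y axis, with the number of genes tested), for both sexes with sex as covariate, for males and for females. For both sexes together, inflammatory mediators lie highest at 0.323 and the committed and newly formed oligodendrocyte list lies lowest at -0.143.

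Of the oligodendrocyte stages, the committed and newly formed list was lower in 16 of 17 members (median -0.143), of which 8 were lower in both sexes. At an unadjusted p under 0.05, 5 of 17 were lower (29.4%), against 4.31% of all genes. They were Frmd4a, Cemip2, Tns3, Mpzl1 and Tcf7l2, a transcription factor of the switch to myelination. Tns3 had 567, 620 and 673 CPM in controls and 464, 522 and 736 CPM with BPA. In 6 of 8 BPA libraries it lay below every control, and in 1 it lay above every control (-0.19 ± 0.08). The list median was -0.25 in males and -0.0373 in females. Without both libraries that stood apart, 1 of 17 was lower at an unadjusted p under 0.05, and with marker covariates 2 of 17 were. The precursor list was lower in 15 of 17 (median -0.0888), but only 3 were lower in both sexes, with medians of -0.277 in males and 0.143 in females. Leaving out 1 library moved the median between -0.0246 (without male control 3) and -0.154 (without female BPA 2), and by over 1.5 times also without male BPA 1 or 3 or female BPA 3 or 4 (-0.0577 to -0.0468). In the precursor list, Olig1 and Olig2 had -0.13 ± 0.06 and -0.17 ± 0.07. They encode transcription factors of the whole lineage, not of precursors alone, and were its only 2 members with an unadjusted p under 0.05. Pdgfra had -0.05 ± 0.18, with -0.43 in males and 0.33 in females.

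The myelinating list was higher in 15 of 28 and lower in 13 (median 0.00836). Without both male BPA 2 and female BPA 1 it was higher in 26 of 28 (median 0.0814), with 6 at an unadjusted p under 0.05, and without male BPA 2 alone in 21 of 28 (median 0.0509). Over all alternatives 12 to 26 were higher. In either direction, 1235 of all genes tested were under that p in the main fit and 1193 without both libraries. Mbp had -0.07 ± 0.08 and Mog, a myelin surface glycoprotein, 0.11 ± 0.08. Nfasc, an adhesion protein of the node and paranode, had 7604 to 8687 CPM in controls and 6634 to 8471 CPM with BPA (-0.18 ± 0.05, limma-voom adjusted p 0.354). Klk6, a secreted protease, had 20.1 to 51.3 and 33.3 to 90.3 CPM (0.59 ± 0.20). Cholesterol genes were lower in 21 of 24, but 9 were lower in both sexes, and the median was 0.0143 in males and -0.138 in females. None had an unadjusted p under 0.05 (0 to 3 lower over the alternatives), and without both libraries 14 of 24 were lower. Nuclear receptor genes that bisphenols bind had 8 higher and 5 lower. Esr1, an estrogen receptor gene, was near the detection limit at 0.106 to 0.330 CPM in controls, and Thra, a thyroid hormone receptor gene, had -0.11 ± 0.05. Of 25 xenobiotic metabolism genes, 23 were tested and 17 were higher: Mgst3, a glutathione transferase, had 0.28 ± 0.08 and Cyp4f14 had -1.15 ± 0.35. The remaining lists, each with its number tested, are in the plot of list medians.

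In some genes, libraries of the same exposure lay far apart. The split was among BPA libraries for Cwc22 and Pde9a, and among controls for Egflam and Hist1h2al. Cwc22, a spliceosome protein gene, had 9.5 to 12.4 CPM in the 8 controls. In the BPA libraries it had 10.8, 258, 11.2 and 230 CPM in males 1 to 4 and 264, 10.7, 260 and 271 CPM in females 1 to 4. In 5 BPA libraries it was far above every control, and in the other 3 it lay within the control range. The fitted log2 fold change was 2.98 ± 1.01 (limma-voom adjusted p 0.465). Egflam, an extracellular matrix gene, had 11.5 to 13.2 CPM in 6 controls and 1.18 and 1.06 CPM in male control 2 and female control 1. All 8 BPA libraries had 0.678 to 2.17 CPM. Pde9a, a cyclic GMP phosphodiesterase, had 17.5 to 37 CPM in controls and 12.6 to 21 CPM in male BPA and female BPA 4, while female BPA 1 to 3 had 4.34, 6.02 and 3.87 CPM. The pseudogene Hist1h2al had 0 to 0.0394 CPM in all 4 male controls and female control 4, and 6.57 to 16.1 CPM in the other 11 libraries. Genotype was not measured, so whether these levels follow it was not tested.

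**Figure D4:**
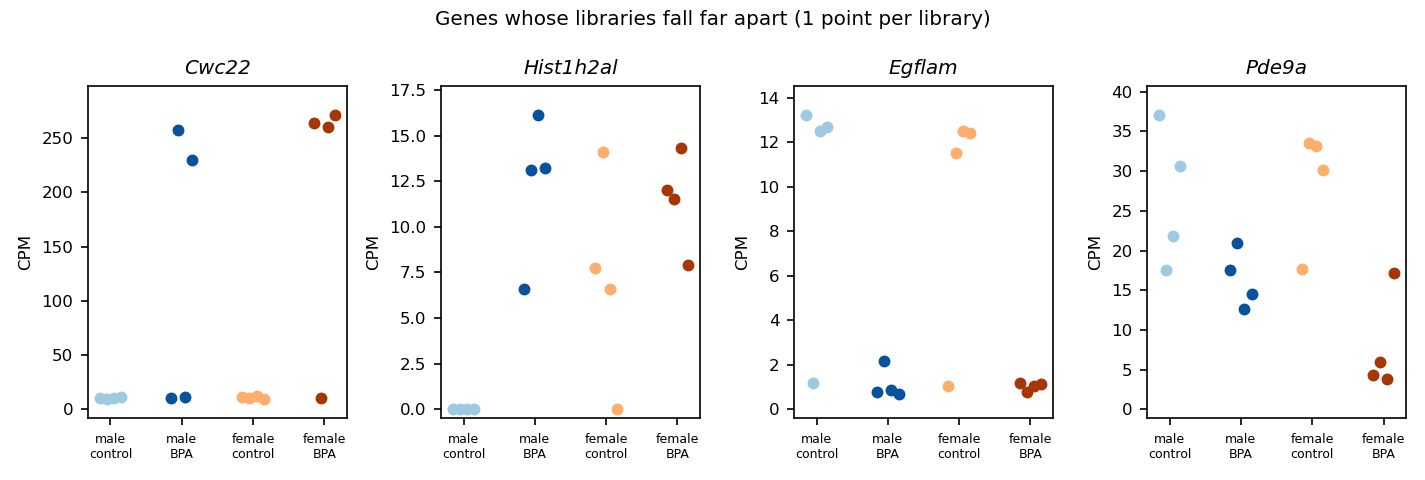
Levels (y axis, CPM) of 4 genes in the 16 libraries by group (x axis), 1 point per library. Cwc22 lies between 230 and 271 CPM in 5 BPA libraries and between 9.5 and 12.4 CPM in the other 11.

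Of the 331 same-direction genes, 35 (10.6%) had another same-direction gene as their direct neighbour on the chromosome. Of the 15409 other autosomal genes, 4.01% had such a neighbour. The 18 adjacent pairs had the same direction in 17. In the remaining pair Slc37a1 was higher and Pde9a lower. The share of same-direction pairs among all adjacent genes tested was not computed, so these 17 have no background. In 2 pairs, Grik2 with Gm47017 and BX649560.1 with Col20a1, the genes overlap, and whether they share reads was not tested. The neighbours Gm34776 and A330049N07Rik both had 0 CPM in male controls 3 and 4 and female controls 2 and 3. Dctn4, a dynactin subunit, and Rbm22, a splicing factor, are neighbours. Dctn4 had 149 to 173 CPM in controls and 177, 250, 168 and 316 CPM in male BPA 1 to 4, and 252, 259, 172 and 256 CPM in female BPA 1 to 4. Rbm22 had 71.7 to 78.3 CPM in controls and was at 116 to 129 CPM in the same 5 BPA libraries and at 78.1 to 80.5 CPM in the other 3. The log2 fold changes were 0.51 ± 0.11 and 0.48 ± 0.11 (limma-voom adjusted p 0.219 for both). Rpa1, a single-stranded DNA-binding protein gene, had 57.8 to 69.4 CPM in controls and 62.8 to 84.6 CPM with BPA, and its neighbour Smyd4 had 7.28 to 9.39 and 8.18 to 11 CPM. Ccl2 and Ccl7, neighbours that encode chemokines, were both higher with BPA (0.62 and 0.66). Neighbouring pairs share their libraries, so the pairs are not independent.

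**Figure D5:**
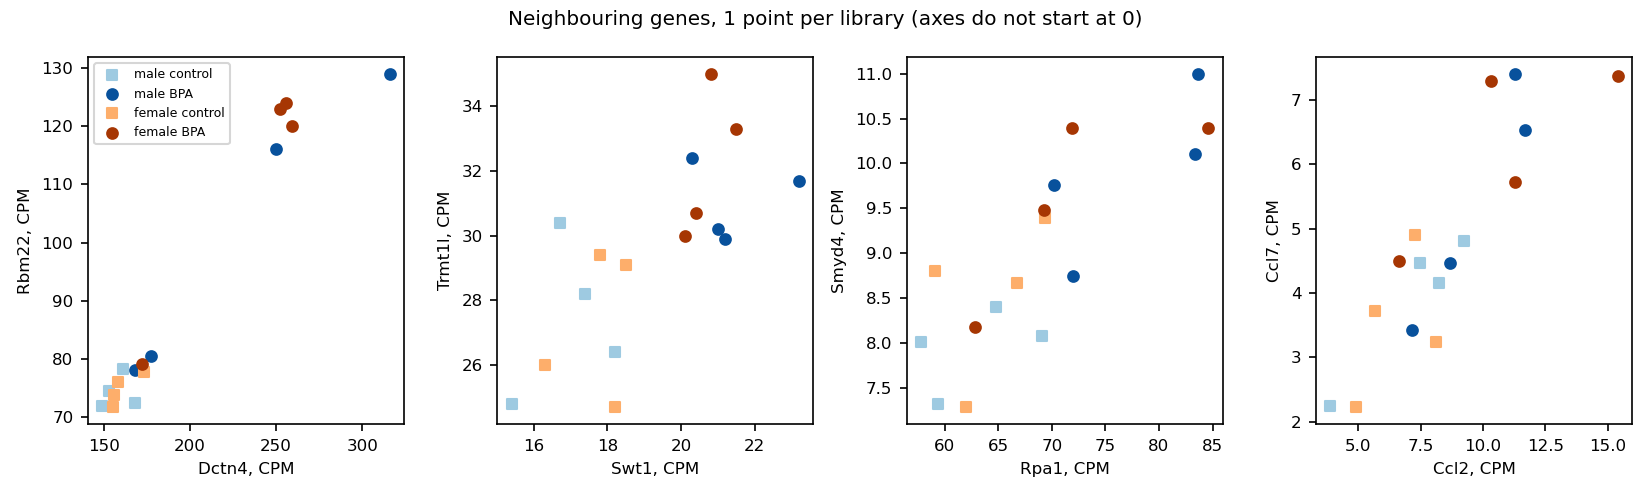
Levels of 4 pairs of neighbouring genes in the 16 libraries, each gene on 1 axis (CPM, axes not starting at 0), with 1 point per library coloured by group and squares for controls. The 5 BPA libraries high in Dctn4 (250 to 316 CPM) are those high in Rbm22 (116 to 129 CPM).

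Of 40 genes for chromatin and DNA methylation enzymes, 20 were higher and 20 lower, and 3 (7.5%) were among the lower same-direction genes, against 1.25% of all autosomal genes. They were Chd7, a chromatin remodeller (-0.14 ± 0.04), Sirt1, a protein deacetylase (-0.18 ± 0.05), and the histone demethylase gene Kdm1a (-0.11 ± 0.04), with limma-voom adjusted p of 0.335, 0.345 and 0.475. Of 30 imprinted genes tested, 17 were higher (56.7%, against 51.1% of autosomal genes). In this list 0 were same-direction genes, which make up 0.851% (higher) and 1.25% (lower) of all autosomal genes. Airn, the long noncoding RNA of the Igf2r imprinted cluster, had 0.354 to 0.865 CPM in controls and 0.349 to 2.03 CPM with BPA. It was at 1.12 to 2.03 CPM in 6 BPA libraries and at 0.349 and 0.474 CPM in male BPA 1 and female BPA 3 (1.08 ± 0.39, limma-voom adjusted p 0.519). Peg3, an imprinted zinc finger gene, had 0.18 ± 0.08.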

How the data were processed

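RNA from O4-sorted oligodendrocytes was sequenced by the authors, who, per the submitters' processing notes, named STAR 2.5.3a, HTSeq 0.6.1p1, the build mm39, bcl2fastq 2.20.0.422 and DESeq2 1.16.1, with no roles given. Read counts per gene, whole numbers in the deposited table, were used as the authors gave them, and are described as counts from their values (values normalized by the authors, also in the table, were not used). The check of units could not read its column names, so the counts are listed as another kind of value and a count model was replaced by limma-voom.

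Of 32207 genes, 16339 passed a minimum count of 10 in enough libraries and a total of 15. Scaling used the trimmed mean of M values (R 4.3.3), and limma 3.58.1 fitted BPA and sex with voom weights and robust empirical Bayes. P-values are two-sided and Benjamini-Hochberg adjusted (threshold 0.05). The sex difference was fitted with 1 coefficient per group. Fold changes are log2 with SE. The code was tested on simulated counts. Symbols came from GENCODE M21. Members and lists were chosen with earlier results of these data known. The text names called genes, the 12 smallest p in each direction among autosomal genes of at least 1 CPM with the same direction in both sexes and a full symbol (clone and Rik-type names and pseudogenes were passed over), up to 2 members of each list, and Mbp, Mog, Pdgfra, Esr1, Esr2, Thra and Nr3c1. Esr2 was below the filter. A result that this rule names is not reported here. Other genes were named after their values were seen, among them those with groups that do not overlap, neighbours, partners and genes whose libraries lay far apart. P-values, SEs and SDs rest on the spread between libraries, and the detection limits cover counting error only. Unmapped columns numbered 0. Alternatives are given in the closing section.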

Additional observations from a re-analysis of the deposited data

Results flagged for a closer look

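In groups of 4 libraries, 22 of 376 tested sets of levels (94 genes, each in 4 groups) had 1 library far from the other 3, by the ratio of its gap to the range. Chance gives about 1 such set in 20. Of the neighbours Dctn4 and Rbm22, female BPA 3 was low in both: Rbm22 was at 79.2 CPM (others 120 to 124) and Dctn4 at 172 CPM (others 252 to 259). Airn was at 0.349 CPM in male BPA 1 and at 1.77 to 1.91 CPM in the other BPA males.

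Female BPA 1, the library with the most microglial marker RNA, was high in the microglial gene Fcrls (110 CPM, others 67.0 to 71.5), the red cell gene Slc4a1 (2.43 CPM, others 1.02 to 1.22) and Irf9 (16.7 CPM, others 13.3 to 13.7). It also held 1.33 CPM of the Y-linked gene Ddx3y, where the other BPA females had 0 to 0.0999 CPM. Male BPA 1 was high in Mpst (64.4 CPM, others 54.1 to 55.2) and in the neuronal gene Eno2 (43.6 CPM, others 21.2 to 24.7). In male BPA 3 the clock gene Arntl was low, at 14 CPM where the others had 17.3.

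Among controls, male control 3 was high in Tmem178 (56.9 CPM, others 45.4 to 47.1) and Olig2 (710 CPM, others 595 to 601). It was low in Arntl (11.3 CPM, others 13.9 to 14.1), Fosl2 (2.89 CPM, others 4.43 to 4.53) and Cd79a (0.166 CPM, others 0.295 to 0.315). Male control 2 was high in Abhd15 (4.97 CPM, others 1.36 to 1.93), and male control 1 was low in Nfasc (7730 CPM, others 8630 to 8690). Female control 1 was high in Dnah14 (2.41 CPM, others 0.633 to 0.825) and low in Pdgfra (86.6 CPM, others 124 to 129). Female control 4 was high in Npm1 (40.3 CPM, others 31 to 32.1) and Sdhc (82.4 CPM, others 77.8 to 78.4), and low in Per1 (97.8 CPM, others 112 to 114).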

How the results depend on the processing

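The number of genes called, 3, was 1 with a filter of at least 1 CPM on average, which left 1700063D05Rik and Xlr3b untested. The number was 1 without male BPA 2 and female BPA 1, 4 without the sex covariate and 3 with limma-trend, which was chosen after seeing the data. Leaving out 1 library at a time gave 0 to 6. It was 0 when control males 1 or 3, control female 4, or BPA males 1, 3 or 4 were left out, and 1 without female BPA 4. With the replicate number as a block it was 0, with log2 fold changes of -0.53 for Utp14b, -1.51 for 1700063D05Rik and 1.79 for Xlr3b. Same-numbered control and BPA samples of a sex had a correlation above 0.1 in 3 of 8 pairs (highest 0.231). Differently numbered samples were not compared, so whether the numbers pair the samples is not known. The difference between the sexes had 0 calls, and 0 to 3 with 1 library left out (3 without female control 4). The same-direction genes, 331, numbered 251 to 459 with 1 library left out and 290 without both libraries, of which 168 were among the 331. The share that was lower, 59.5%, was 45.9% with no filter on low counts, 40% without both libraries and 45.2% without female control 3. Directions turned for Xist (-0.0589 with 1 coefficient per group and -0.862 without the sex covariate), Pdgfra (0.00893 with marker covariates, -0.181 to 0.0402 with 1 library left out), Mbp (0.00691 without both libraries), Ddx3y (-0.0608 to 0.385) and Esr1 (-0.291 to 0.0396). The cause was not tested. The alternative with DESeq2 was not run. Depth limits low genes: 3 counts are 0.0705 to 0.127 CPM.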
